A study of Rattus norvegicus with 20 samples.

Results

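The 49 genes of the C-type lectin (Clec), sialic acid-binding Siglec and killer cell lectin-like receptor (Klr) families were read in 20 libraries of inguinal white adipose tissue (iWAT), a subcutaneous fat depot of the rat. They were taken by name, as every gene of the 32545 in the count table whose symbol starts with Clec and a digit, with Siglec, or with Klr, a letter from a to k and a digit. Of the 49, 45 had reads in more than 10 of the 20 libraries and were tested, among 17653 genes tested in all. Clec18a, Clec3a, Clec4f and Klrb1 were not tested and had at most 6 reads in any library.

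There were 4 groups of male ZSF1 rats with 5 animals each, enrolled at 21 to 22 weeks of age and kept for 10 weeks on Purina 5008 chow. The Lean group was ZSF1 lean rats without treatment. The Obese, Food matched and Cmpd 1 groups were ZSF1 obese rats, whose obesity comes from 2 leptin receptor mutations (fa and cp). Obese rats ate freely, Food matched rats received the amount that the Cmpd 1 group had eaten in the preceding week, and Cmpd 1 rats ate chow that held an inhibitor of the protein kinases PKCα and PKCβ. Obese versus Lean addresses what came with disease, and Cmpd 1 versus Food matched addresses what came with the compound at similar food intake.

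C-type lectin receptors are membrane proteins with a carbohydrate-recognition fold, which myeloid cells use to sense microbial sugars, crystals and dead cells. Some signal through the kinase Syk, directly or through the adaptors FcRγ (Fcer1g) and DAP12 (Tyrobp), and others carry an inhibitory motif that recruits the phosphatases Ptpn6 and Ptpn11. Siglecs bind sialic acids, and Klr receptors, most of them encoded in the natural killer gene complex, are known from natural killer (NK) cells. In obese adipose tissue many such receptors are known from macrophages around dying adipocytes.

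In the rn6 coordinates of the count table, 35 of the 49 genes lie on chromosome 4. Of these, 9 (the Clec4a and Clec4b genes, Clec4d, Clec4e, Clec4n and Klrg1) lie between 155039629 and 156276304. Another 22, with the Clec2 genes, Clec12a, Clec7a and most Klr genes, lie between 161949817 and 165460075, the natural killer gene complex. The other genes are on chromosomes 1, 3, 6, 10, 12, 18 and 19.

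Promoter sequences are shown for genes that rose in Obese versus Lean and fell in Cmpd 1 versus Food matched animals, because these genes moved together. Each is 300 bases of RefSeq's GRCr8 assembly, from 250 bases before the annotated start to 50 after it, on the strand of the gene, and capitals mark matches to the motifs named below. Clec12a is at chr4:164483912-164484211 (plus strand), Clec4a1 at chr4:157845561-157845860 (plus strand, whereas rn6 places the gene on the minus strand), Clec7a at chr4:164599778-164600077 (minus strand) and Clec5a at chr4:70383457-70383756 (minus strand).
Clec12a: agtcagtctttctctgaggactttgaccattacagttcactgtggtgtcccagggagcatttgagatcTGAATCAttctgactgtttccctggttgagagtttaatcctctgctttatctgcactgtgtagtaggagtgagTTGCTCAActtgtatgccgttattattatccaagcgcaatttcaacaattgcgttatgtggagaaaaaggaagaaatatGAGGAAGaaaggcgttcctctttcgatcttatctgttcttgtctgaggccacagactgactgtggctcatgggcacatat
Clec4a1: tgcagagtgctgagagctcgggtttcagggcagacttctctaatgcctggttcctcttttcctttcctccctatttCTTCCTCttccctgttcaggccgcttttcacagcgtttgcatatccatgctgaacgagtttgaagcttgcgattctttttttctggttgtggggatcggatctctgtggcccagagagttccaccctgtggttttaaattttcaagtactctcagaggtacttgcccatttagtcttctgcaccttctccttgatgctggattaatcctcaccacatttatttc
Clec7a: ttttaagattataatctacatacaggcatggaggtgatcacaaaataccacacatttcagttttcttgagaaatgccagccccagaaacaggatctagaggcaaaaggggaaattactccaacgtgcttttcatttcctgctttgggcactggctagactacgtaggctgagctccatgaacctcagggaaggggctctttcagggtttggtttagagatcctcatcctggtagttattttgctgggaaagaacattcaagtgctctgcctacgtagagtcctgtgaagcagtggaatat
Clec5a: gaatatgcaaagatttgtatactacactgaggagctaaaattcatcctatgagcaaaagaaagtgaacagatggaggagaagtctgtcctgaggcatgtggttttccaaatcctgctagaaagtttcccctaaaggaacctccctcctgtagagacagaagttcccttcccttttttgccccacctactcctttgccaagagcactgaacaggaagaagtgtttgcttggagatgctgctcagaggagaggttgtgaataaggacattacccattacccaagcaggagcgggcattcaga
In the Clec12a window the PU.1 core GAGGAAG lay 30 bases before the start, the C/EBP pattern TTGCNNAA 109 bases before it and the AP-1 pattern TGANTCA 182 bases before it, and none of the matches overlapped. The PU.1 core lay 174 bases before the start of Clec4a1, on the reverse strand. The Clec7a and Clec5a windows held no match to these patterns, nor to the interferon regulatory factor repeat (GAAA, 2 bases of any kind and GAAA) or TATAAA. The same holds for the window of Clec4a2, which is not shown, and Clec2d2 and Siglec1 had no entry.
RefSeq promoters were found for 39 of the 49 genes, 17 of them higher in Obese versus Lean and 20 of them tested but not higher. Searched on both strands, the PU.1 core was in 17.6% of the 17, in 15% of the 20 and in 12.4% of all 33469 promoters. The C/EBP pattern was in 35.3%, 15% and 10.6%, the AP-1 pattern in 17.6%, 10% and 7.33%, and the interferon regulatory factor repeat in 17.6%, 10% and 3.92%. The TATA box letters were in 5.88%, 30% and 14.2%. These are counts of letters in a window, with 1 to 6 of the 17 genes behind each share, and factor binding was not measured.

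Between 31716457 and 74784655 reads were counted per library, with the fewest in Cmpd 1 rat 4. Values are given as CPM, the reads of a gene relative to the reads counted in its library with library sizes scaled by TMM, as mean ± SD of the 5 rats of a group. Lean rats 1 and 2 also held skeletal muscle transcripts. The summed level of Acta1, Ckm, Mylpf, Myl1 and Pvalb was 1797 and 3414 CPM in these rats, 51.3 CPM in rat 5 of the Food matched group, and no higher than 9.23 CPM in any of the other 17 libraries. Genes of lymph node stroma (Ccl21, Ccl19, Cxcl13, Glycam1 and Madcam1) summed to 80.1 to 94.6 CPM in Lean and 5.70 to 38.2 CPM in the other animals. B-cell markers, 7 in number, summed to 1.47 to 3.34 CPM in Lean and 0.877 to 3.14 CPM in the other animals. Whether lymph node tissue was present was not tested. Fold changes are from edgeR's quasi-likelihood test on all genes, with Benjamini-Hochberg adjustment, and are given with their standard errors on the log2 scale. A differentially expressed gene (DEG) had an adjusted p under 0.05 and changed over 1.5-fold.

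In Obese versus Lean animals 19 of the 45 genes tested were DEGs in the higher direction, against 11.3% of all genes tested. In the lower direction there were 2, Siglec10 and Clec2l, against 11.0%. The genes that rose included the Syk-coupled receptors Clec7a, Clec5a, Clec4d and Clec4e, 6 of 7 genes of the Clec4a, Clec4b and Clec12 group, and the sialic acid receptor Siglec1. The median log2 fold change was 0.57 over the 45 genes and −0.01 over all genes tested. The 5 Obese rats all lay above the 5 Lean rats for 17 genes (17.7% of all genes) and all below them for Clec2g, Clec14a and Clec2l (15.9% of all genes). With the fold threshold left out, 20 genes were higher (23.7% of all genes) and 4 lower (24.5%).

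In Cmpd 1 versus Food matched animals 8 of the 45 genes were DEGs in the lower direction, against 4.65% of all genes tested. The 8 were Clec7a, Clec5a, Clec12a, Clec4a1, Clec4a2, Clec2d2, Siglec1 and Clec4g. None was a DEG in the higher direction with edgeR, limma-voom or DESeq2, against 1.54% of all genes with edgeR, while 21 of the 45 had an unadjusted p under 0.05 (33.8% of all genes), of which Clec14a and Clec2l were higher. With 1 library left out, Clec4n was called higher without Food matched rat 1, and Clec2l without Food matched rat 2 or Cmpd 1 rat 1. The median log2 fold change was −0.35 over the 45 genes and 0.01 over all genes. For 12 genes the 5 Cmpd 1 rats all lay below the 5 Food matched rats (7.86% of all genes). With the fold threshold left out, 15 genes were lower and 1 (Clec14a) was higher, where 11.4% of all genes passed in each direction.

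Clec7a, Clec5a, Clec12a, Clec4a1, Clec4a2, Clec2d2 and Siglec1 were higher in the first comparison and lower in the second, 7 of 45 against 3.69% of all genes. In bulk tissue, fewer cells of a type and less RNA per cell cannot be told apart. The general leukocyte gene Ptprc (CD45) was at a mean of 65.9 (Lean), 214 (Obese), 223 (Food matched) and 146 CPM (Cmpd 1), with log2 fold changes of 1.70 and −0.61 in the same comparisons.

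**Figure D1:**
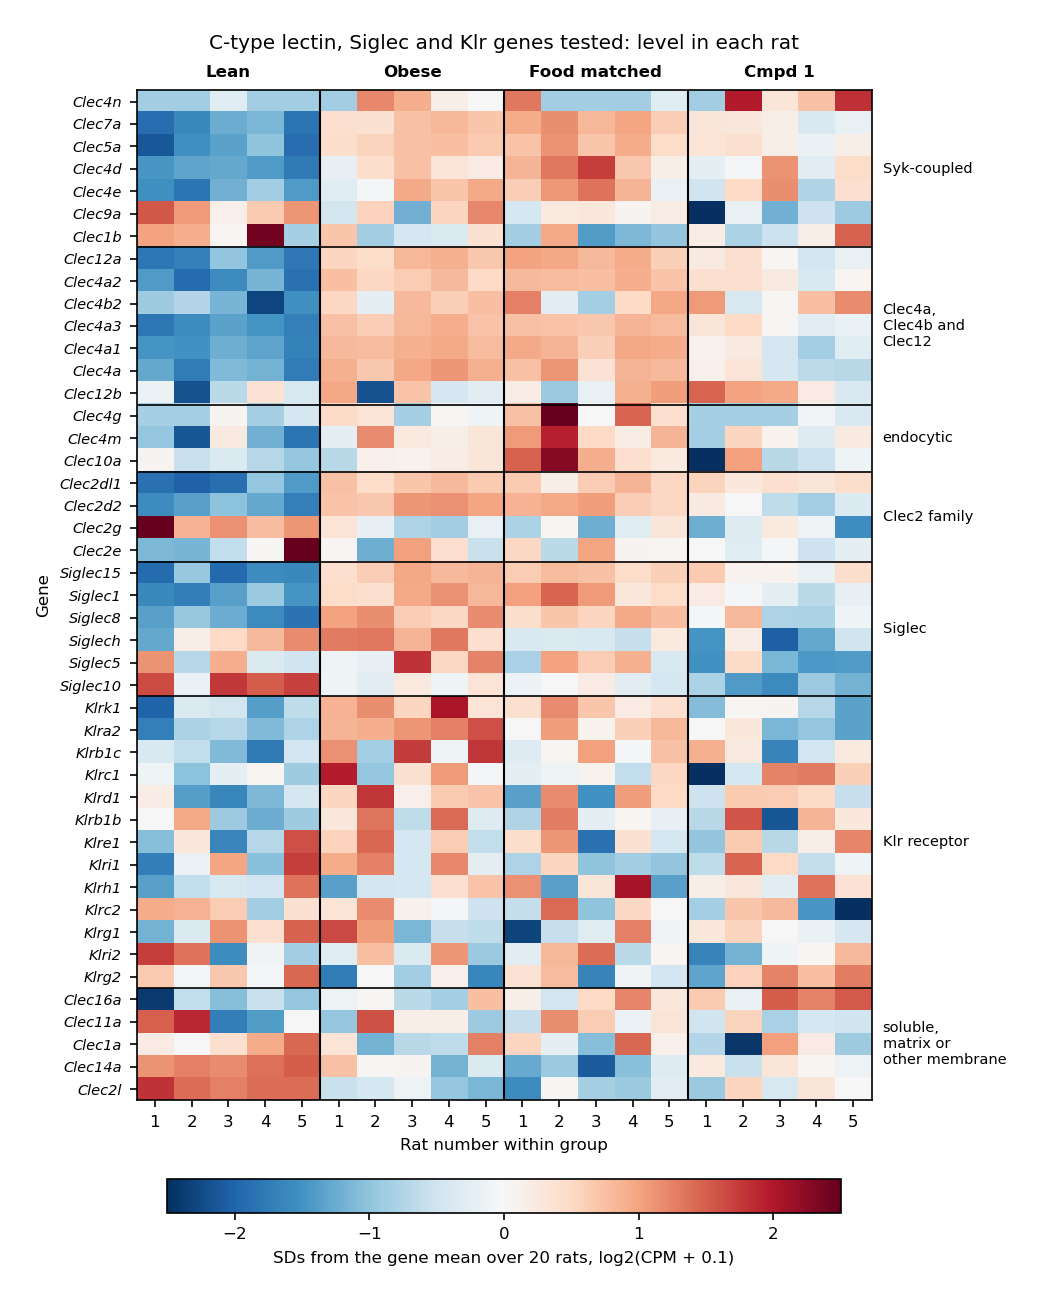
Heat map of the 45 genes tested (rows, grouped by kind) in each of the 20 rats (columns, 5 per group). Colour gives the number of SDs from the gene's mean of log2(CPM + 0.1), cut at 2.5 SDs either way. Blue for Lean and red for Obese and Food matched animals runs through the Clec4a genes, Clec12a, Clec7a and Clec5a, with paler cells in the Cmpd 1 columns, while the Klr rows show no such blocks apart from Klrk1 and Klra2.

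Among the 7 Syk-coupled receptors, 4 were DEGs in the higher direction in Obese versus Lean and 2 in the lower direction in Cmpd 1 versus Food matched animals. Clec7a (Dectin-1), the receptor for fungal β-glucans, was at 5.03, 6.73, 9.82, 10.7 and 5.49 CPM in Lean rats 1 to 5 and at 49.6, 48.1, 67.3, 74.6 and 65.0 CPM in Obese rats. It was at 81.2, 102, 74.7, 87.2 and 59.8 CPM in Food matched rats and at 44.6, 43.5, 38.0, 22.5 and 27.5 CPM in Cmpd 1 rats. Lean rats were lowest, and every Cmpd 1 rat lay between the highest Lean rat and the lowest Obese or Food matched rat. Clec7a was 8.07-fold higher in Obese versus Lean (log2 3.01 ± 0.23, adjusted p = 2.39e-09, edgeR) and 2.30-fold lower in Cmpd 1 versus Food matched animals (log2 −1.20 ± 0.21, adjusted p = 0.00052).

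Clec5a (MDL-1), a receptor that signals through DAP12, was at 0.881, 1.56, 1.88, 2.58 and 1.09 CPM in Lean and at 9.81, 10.9, 12.8, 12.997 and 11.9 CPM in Obese rats. Food matched rats were at 12.5, 18.5, 12.4, 15.5 and 9.96 CPM and Cmpd 1 rats at 9.06, 9.45, 7.58, 5.64 and 7.57 CPM. The Cmpd 1 rats lay above all Lean rats and below all rats of the other obese groups. The log2 fold changes were 2.87 ± 0.23 in Obese versus Lean (adjusted p = 3.9e-09, edgeR) and −0.80 ± 0.21 in Cmpd 1 versus Food matched animals (adjusted p = 0.00761).

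Clec4d (MCL) and Clec4e (Mincle), neighbouring receptors that pair with FcRγ and sense mycobacterial glycolipids, were at lower levels. Clec4d was at 1.70 ± 0.17 (Lean), 4.34 ± 0.76 (Obese), 6.25 ± 1.94 (Food matched) and 4.26 ± 1.43 CPM (Cmpd 1). Clec4e was at 1.09 ± 0.19 (Lean), 2.55 ± 0.63 (Obese), 2.92 ± 0.70 (Food matched) and 2.29 ± 0.79 CPM (Cmpd 1). Both were DEGs in Obese versus Lean, with log2 fold changes of 1.35 ± 0.22 and 1.23 ± 0.24 (adjusted p = 2.93e-05 and 0.00022, edgeR). The groups overlapped for both in Cmpd 1 versus Food matched animals, with log2 fold changes of −0.55 ± 0.21 (adjusted p = 0.0612) and −0.34 ± 0.23 (adjusted p = 0.317).

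The other 3 Syk-coupled receptors were no DEGs in these comparisons. Clec9a (DNGR-1), which binds F-actin of dead cells and marks cross-presenting dendritic cells, was at 2.80 ± 0.42 (Lean), 2.28 ± 0.60 (Obese), 2.18 ± 0.18 (Food matched) and 1.59 ± 0.40 CPM (Cmpd 1). It was a DEG in Cmpd 1 versus Lean alone of the comparisons made, 1.76-fold lower, and these groups did not overlap. Clec1b (CLEC-2), the podoplanin receptor of platelets, stayed under 1.31 CPM in every library, and Clec4n (Dectin-2) had at most 8 reads in any library. At these low levels Clec1b was called lower in Food matched versus Lean (log2 −1.11 ± 0.45, adjusted p = 0.0428, edgeR). Clec4n was called higher in Cmpd 1 versus Lean (log2 3.77 ± 1.25, adjusted p = 0.0214, edgeR).

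Of the 7 genes of the Clec4a, Clec4b and Clec12 group, 6 were DEGs in the higher direction in Obese versus Lean and 3 in the lower direction in Cmpd 1 versus Food matched animals. Clec12a and some Clec4a (DCIR) genes encode receptors with an inhibitory motif, while Clec4b receptors are known as activating. Their summed level was 71.0 to 88.1 (Lean), 222 to 254 (Obese), 222 to 252 (Food matched) and 126 to 195 CPM (Cmpd 1), so that the Cmpd 1 rats lay apart from all other groups.

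Clec12a (MICL), an inhibitory receptor for uric acid crystals, was at 2.35, 2.59, 4.74, 3.29 and 2.42 CPM in Lean and at 16.8, 15.5, 21.1, 22.1 and 18.5 CPM in Obese rats. It was at 24.3, 23.7, 20.7, 23.1 and 17.5 CPM in Food matched and at 12.96, 14.8, 11.2, 7.23 and 9.21 CPM in Cmpd 1 rats. No Cmpd 1 rat overlapped with another group. Clec12a was 6.13-fold higher in Obese versus Lean (log2 2.62 ± 0.20, adjusted p = 2.12e-09, edgeR) and 1.97-fold lower in Cmpd 1 versus Food matched animals (log2 −0.97 ± 0.18, adjusted p = 0.000808). The opposite strand holds Chtop, at a mean of 2.80 CPM, and no source says whether strand was used in counting, so reads of the pair cannot be told apart where the genes overlap. Clec12b, its neighbour, did not pass the test (log2 0.21 ± 0.26 and 0.20 ± 0.26, adjusted p = 0.546 and 0.655).

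The rat Clec4a genes form a row on chromosome 4 and moved in the same direction. Clec4a1 was at 36.6, 36.2, 40.6, 39.0 and 33.7 CPM in Lean and at 90.5, 89.6, 93.2, 95.2 and 89.7 CPM in Obese rats. Food matched rats were at 95.7, 91.5, 82.8, 96.4 and 94.4 CPM, and Cmpd 1 rats at 67.8, 71.7, 55.5, 47.2 and 58.4 CPM. Cmpd 1 rats lay between the Lean rats and all rats of the other obese groups. The log2 fold changes were 1.30 ± 0.08 (adjusted p = 5.78e-10, edgeR) and −0.61 ± 0.08 (adjusted p = 8.38e-05). The second of these is near the fold threshold, and without Cmpd 1 rat 4 it was −0.54 and no longer a DEG.

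Clec4a2 was at 1.21, 0.806, 1.05, 1.49 and 0.841 CPM in Lean and at 6.58, 5.51, 6.01, 6.79 and 5.42 CPM in Obese rats. Food matched rats were at 6.85, 6.74, 6.57, 7.40 and 6.37 CPM and Cmpd 1 rats at 4.99, 5.08, 4.39, 2.76 and 3.83 CPM. The groups again stood apart, with the Obese and Food matched rats sharing a range. Clec4a2 was 5.62-fold higher in Obese versus Lean (adjusted p = 8.46e-10, edgeR) and 1.60-fold lower in Cmpd 1 versus Food matched animals (adjusted p = 0.00354). Without Cmpd 1 rat 4 the latter, −0.68 on the log2 scale, was −0.57 and no longer a DEG.

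Clec4a3, the most abundant of the Clec4a genes, was at 24.6, 27.9, 31.8, 29.2 and 26.1 CPM in Lean animals and at 98.3, 92.8, 103, 108 and 97.9 CPM in Obese rats. It was at 98.9, 97.2, 95.8, 105 and 101 CPM in Food matched and at 78.1, 86.8, 66.8, 56.7 and 60.1 CPM in Cmpd 1 rats. Its groups were separated in the same way as those of Clec4a1. The log2 fold change of 1.84 ± 0.09 in Obese versus Lean had an adjusted p of 4.81e-11 (edgeR), the smallest of the 45 genes. For Cmpd 1 versus Food matched animals the value of −0.51 ± 0.09 (adjusted p = 0.000566) was under the fold threshold, and without Cmpd 1 rat 2 it was −0.61 and a DEG. Clec4a itself was at 8.07 ± 0.95 (Lean), 19.1 ± 1.09 (Obese), 18.2 ± 1.79 (Food matched) and 12.5 ± 2.18 CPM (Cmpd 1), with log2 fold changes of 1.24 ± 0.10 and −0.54 ± 0.10. Clec4b2 had at most 27 reads in any library and was higher in Obese versus Lean (log2 2.11 ± 0.53, adjusted p = 0.00246), with no call in Cmpd 1 versus Food matched animals.

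**Figure D2:**
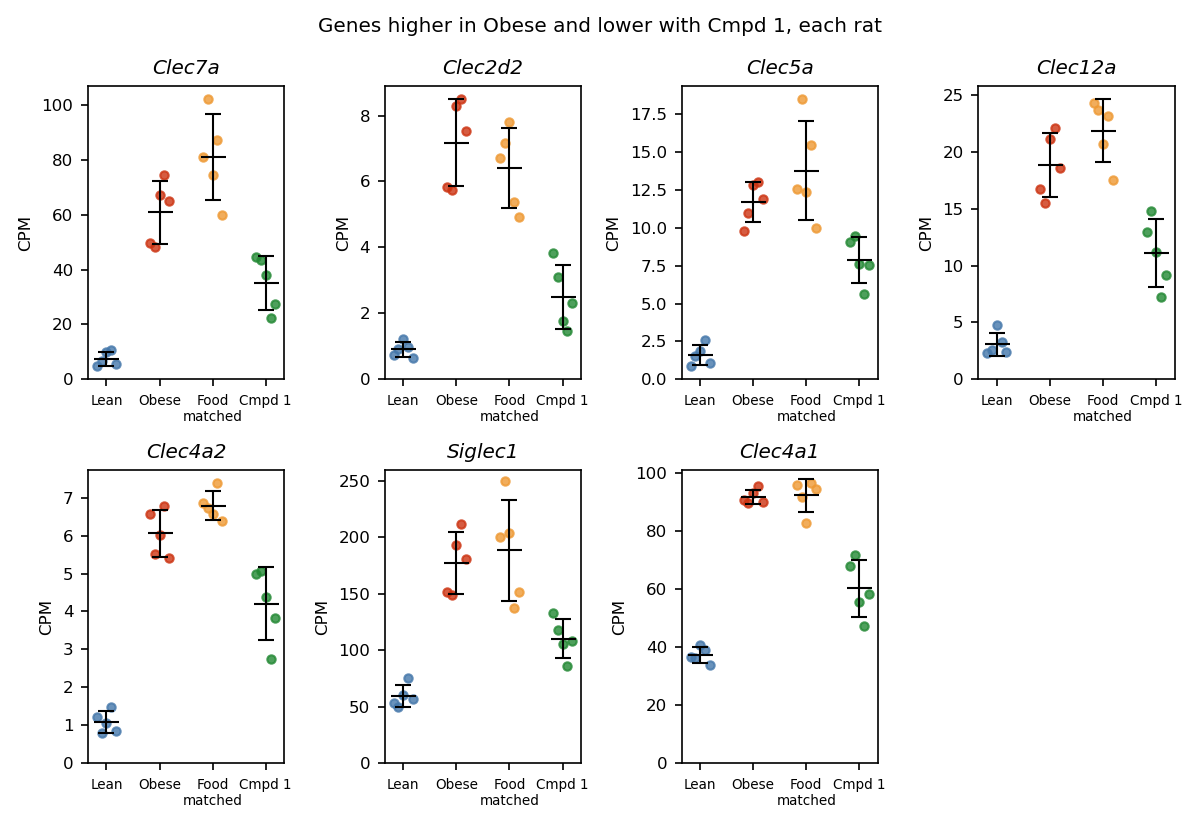
Level in CPM (vertical axes, starting at 0) of the 7 genes that were DEGs in both comparisons, for Lean, Obese, Food matched and Cmpd 1 rats. Each point is 1 rat, and bars give the mean ± SD of 5 rats. For Clec7a the Lean rats sit between 5.03 and 10.7 CPM and the Cmpd 1 rats between 22.5 and 44.6 CPM, under all Obese and Food matched rats.

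The Clec2 family encodes lectin-like proteins, several of which are ligands of the Klrb1 (NKR-P1) receptors that lie beside them in the genome. Of its 4 genes, 2 rose in Obese versus Lean and 1 fell in Cmpd 1 versus Food matched animals. Clec2dl1 was at 0.979, 0.763, 0.942, 3.54 and 1.87 CPM in Lean and at 37.7, 25.6, 35.6, 42.2 and 34.4 CPM in Obese rats. It was at 34.2, 17.5, 33.0, 44.3 and 28.1 CPM in Food matched and at 29.8, 20.1, 24.6, 20.98 and 25.0 CPM in Cmpd 1 rats. All obese rats lay above all Lean rats, and the 3 obese groups overlapped. The 21.6-fold difference between Obese and Lean (log2 4.43 ± 0.32, adjusted p = 1.7e-09, edgeR) was the largest of the 19 DEGs. The log2 fold change in Cmpd 1 versus Food matched animals was −0.38 ± 0.27 (adjusted p = 0.346). The Clec2dl1 gene model spans 121.1 kb on chromosome 4 and shares its strand with another gene model, AABR07062129.1 (0.158 CPM), so its reads may come from more than 1 gene.

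Clec2d2, which lies next to Clec2dl1, was at 0.744, 0.919, 1.24, 0.990 and 0.642 CPM in Lean and at 5.85, 5.73, 8.29, 8.50 and 7.52 CPM in Obese rats. Food matched rats were at 6.70, 7.17, 7.81, 5.39 and 4.93 CPM and Cmpd 1 rats at 3.83, 3.10, 1.77, 1.47 and 2.30 CPM. Cmpd 1 rats lay above every Lean rat and under every rat of the other obese groups. Clec2d2 was 7.91-fold higher in Obese versus Lean (log2 2.98 ± 0.24, adjusted p = 4.62e-09, edgeR) and 2.54-fold lower in Cmpd 1 versus Food matched animals (log2 −1.34 ± 0.22, adjusted p = 0.000349).

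Clec2g differed far less. It was at 423, 343, 354, 339 and 353 CPM in Lean rats, at 322, 303, 284, 281 and 304 CPM in Obese rats, at 283, 312, 269, 299 and 321 CPM in Food matched rats and at 269, 299, 319, 307 and 259 CPM in Cmpd 1 rats. Lean rats were above all others, and the obese groups shared 1 range. The log2 fold change in Obese versus Lean was −0.28 ± 0.07 (adjusted p = 0.00233, edgeR), under the fold threshold, and in Cmpd 1 versus Food matched animals it was −0.03 ± 0.07 (adjusted p = 0.807). Clec2e had at most 112 reads in any library and did not pass the test. It was at 1.71 CPM in Lean rat 5, at 0.0565 to 0.201 CPM in the other Lean rats and at 0.0513 to 0.420 CPM in the obese rats.

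Of the 6 Siglecs, 3 were DEGs in the higher direction and 1 in the lower direction in Obese versus Lean, and 1 was lower in Cmpd 1 versus Food matched animals. Siglec1 (sialoadhesin, CD169), a macrophage receptor that captures sialylated particles, was at 53.4, 50.2, 60.6, 75.3 and 57.0 CPM in Lean and at 152, 149, 193, 212 and 181 CPM in Obese rats. It was at 200, 249, 203, 137 and 151 CPM in Food matched and at 133, 118, 106, 85.9 and 108 CPM in Cmpd 1 rats. The highest Cmpd 1 rat was just under the lowest Food matched rat, and no group overlapped with Lean. The log2 fold changes were 1.58 ± 0.15 (adjusted p = 4.88e-08, edgeR) and −0.77 ± 0.15 (adjusted p = 0.00109).

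Siglec10, an inhibitory receptor known from B cells and myeloid cells, had another order of groups. It was at 54.5, 27.2, 57.7, 52.2 and 56.2 CPM in Lean and at 27.8, 26.0, 31.9, 27.8 and 33.1 CPM in Obese rats. It was at 27.4, 29.2, 31.3, 25.9 and 24.5 CPM in Food matched and at 21.4, 16.7, 15.6, 20.4 and 18.2 CPM in Cmpd 1 rats. Apart from Lean rat 2, which lay within the Obese range, Lean rats were highest, and Cmpd 1 rats were under all others. Siglec10 was 1.69-fold lower in Obese versus Lean (log2 −0.76 ± 0.15, adjusted p = 0.000234, edgeR). In Cmpd 1 versus Food matched animals the log2 fold change of −0.58 ± 0.15 (adjusted p = 0.00719) was just under the fold threshold. It was a DEG, at −0.59 to −0.64, without Food matched rat 1, 4 or 5 or without Cmpd 1 rat 1 or 4, and with either of the other tools. In Cmpd 1 versus Lean the difference was 2.69-fold (log2 −1.43 ± 0.15, adjusted p = 4.1e-07). The 7 B-cell markers summed to at most 3.34 CPM in any library, with none of them a DEG in these comparisons.

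Siglec15, a receptor known from osteoclasts and macrophages that pairs with DAP12, was at 0.0728 ± 0.0735 (Lean), 1.35 ± 0.27 (Obese), 1.22 ± 0.16 (Food matched) and 0.821 ± 0.281 CPM (Cmpd 1). It was higher in Obese versus Lean (log2 4.09 ± 0.40, adjusted p = 4.79e-08, edgeR), with at least 1 and at most 109 reads per library. The Cmpd 1 and Food matched ranges overlapped (log2 −0.56 ± 0.32, adjusted p = 0.238). Siglec8 was higher in Obese versus Lean at a fold of 1.53 (log2 0.61 ± 0.07, adjusted p = 8.47e-07), with 7.55 to 8.93 CPM in Lean and 11.7 to 13.3 CPM in Obese rats. Siglec5 did not pass the test in either comparison (20.2 ± 3.68 (Lean), 22.7 ± 4.17 (Obese), 20.9 ± 3.39 (Food matched) and 16.1 ± 3.13 CPM (Cmpd 1)).

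Siglech, a marker of plasmacytoid dendritic cells, was low in every library, with the lowest group mean in Cmpd 1 rats. Lean rats were at 0.215, 0.608, 0.757, 0.923 and 1.16 CPM and Obese rats at 1.26, 1.27, 0.944, 1.26 and 0.720 CPM. Food matched rats were at 0.423, 0.427, 0.423, 0.369 and 0.648 CPM and Cmpd 1 rats at 0.182, 0.620, 0.104, 0.214 and 0.387 CPM. All Food matched and all Cmpd 1 rats were below all Obese rats, and it was the 1 gene of the 45 for which all Food matched rats lay under all Obese rats (1.01% of all genes). Siglech had a log2 fold change of −1.82 ± 0.41 in Cmpd 1 versus Obese (adjusted p = 0.0067, edgeR), and in Food matched versus Obese the value was −1.25 ± 0.39 (adjusted p = 0.213). It was no DEG in the main comparisons, where the groups overlapped. The values were −0.57 ± 0.41 in Cmpd 1 versus Food matched animals (adjusted p = 0.36, edgeR) and 0.57 ± 0.38 in Obese versus Lean (adjusted p = 0.235). Between 5 and 86 reads per library lie behind these levels.

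Of the 14 Klr genes, 13 were tested and 7 of these had a mean under 1 CPM. In Obese versus Lean 3 were DEGs in the higher direction, and in Cmpd 1 versus Food matched animals none was a DEG in either direction with edgeR. Klra2, of the Ly49 family of receptors for MHC class I, was at 17.6, 21.6, 22.1, 20.2 and 21.8 CPM in Lean and at 31.5, 31.98, 33.5, 34.7 and 37.7 CPM in Obese rats. It was at 25.9, 33.0, 26.5, 29.8 and 31.4 CPM in Food matched and at 26.0, 27.7, 20.01, 20.8 and 19.1 CPM in Cmpd 1 rats. Obese rats lay above all Lean and all Cmpd 1 rats, while Cmpd 1 overlapped with Food matched and with Lean rats. The log2 fold changes were 0.71 ± 0.10 in Obese versus Lean (adjusted p = 4.31e-06, edgeR) and −0.37 ± 0.10 in Cmpd 1 versus Food matched animals (adjusted p = 0.00975), the latter under the fold threshold.

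Klrk1 (NKG2D), the activating receptor for Raet1 ligands, was at 3.33, 5.32, 5.17, 3.98 and 4.91 CPM in Lean and at 7.53, 8.17, 6.85, 10.5 and 6.48 CPM in Obese rats. Food matched rats were at 6.61, 8.23, 7.16, 6.24 and 6.61 CPM and Cmpd 1 rats at 4.31, 5.95, 5.998, 4.81 and 4.02 CPM. Cmpd 1 rats overlapped with Lean rats only. Klrk1 was 1.74-fold higher in Obese versus Lean (adjusted p = 0.000181, edgeR), and its log2 fold change of −0.47 ± 0.15 in Cmpd 1 versus Food matched animals (adjusted p = 0.0271) was under the fold threshold. Klrb1c (NKR-P1C) was a DEG at 1.60-fold in Obese versus Lean with overlapping groups (0.487 to 0.724 CPM in Lean and 0.633 to 1.31 CPM in Obese rats).

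The other 10 Klr genes tested were no DEGs in any of the 6 comparisons. They include Klrd1 (CD94) and its NKG2 partners Klrc1 and Klrc2, which form receptors for non-classical MHC class I. Klrd1 was at 1.33 ± 0.23 (Lean), 1.90 ± 0.27 (Obese), 1.63 ± 0.45 (Food matched) and 1.66 ± 0.22 CPM (Cmpd 1), and its log2 fold change of 0.52 ± 0.18 in Obese versus Lean passed the adjusted p (0.024, edgeR) but not the fold threshold. Klrb1b, with a gene model of 75.4 kb, was at 2.52 ± 0.53 CPM in Lean and 3.03 ± 0.63 CPM in Obese rats. Of 7 NK-cell markers measured (Klrd1 among them), 1 (Cd244, also known from myeloid cells) was a DEG in the higher direction in Obese versus Lean, with 3.45 and 17.2 CPM in the Lean and Obese means, while Ncr1 was at 1.32 and 1.43 CPM. Cd244 was lower and Prf1 (perforin) higher in Cmpd 1 versus Food matched animals. The NK-cell markers summed to 14.6 to 17.6 (Lean), 27.8 to 33.4 (Obese), 26.7 to 37.1 (Food matched) and 20.2 to 24.0 CPM (Cmpd 1). Cd244 held most of the difference between the Lean and Obese sums. The median log2 fold change of the 7 markers was 0.17 in Obese versus Lean and 0.11 in Cmpd 1 versus Food matched animals. Their part in the Klr values was not tested.

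Among the endocytic lectins, Clec10a (MGL), a galactose receptor of macrophages and dendritic cells, was at 130, 118, 121, 115 and 111 CPM in Lean and at 115, 131, 130, 132 and 135 CPM in Obese rats. It was at 162, 183, 148, 137 and 134 CPM in Food matched and at 87.3, 151, 115, 118 and 127 CPM in Cmpd 1 rats. The groups overlapped in both comparisons. Its log2 fold change was 0.12 ± 0.11 in Obese versus Lean (adjusted p = 0.386, edgeR) and −0.35 ± 0.11 in Cmpd 1 versus Food matched animals (adjusted p = 0.0195), under the fold threshold. Clec4m, of the DC-SIGN family, was higher in Obese versus Lean (log2 1.54 ± 0.47, adjusted p = 0.0104) with wide and overlapping ranges of 0.353 to 2.60 and 1.83 to 5.46 CPM. Without Lean rats 1 and 2 it was no DEG there, and it became a DEG in the lower direction in Cmpd 1 versus Food matched animals (log2 −1.17 ± 0.46 and adjusted p = 0.0721 with all rats). Clec4g (LSECtin) was a DEG in Cmpd 1 versus Food matched animals on at most 25 reads per library, with 0.0339 to 0.323 CPM in Food matched and at most 0.0306 CPM in Cmpd 1 rats.

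Clec2l, a lectin known from brain, was at 16.5, 13.3, 12.3, 13.3 and 13.3 CPM in Lean and at 4.68, 4.99, 5.91, 3.74 and 3.41 CPM in Obese rats. It was at 2.69, 6.44, 4.05, 3.84 and 5.50 CPM in Food matched and at 3.83, 8.41, 5.10, 7.38 and 6.33 CPM in Cmpd 1 rats. Lean rats lay above all obese rats, whose groups overlapped. It was 3.02-fold lower in Obese versus Lean (log2 −1.60 ± 0.22, adjusted p = 3.74e-06, edgeR), the largest decrease of the 45 genes that was a DEG there. In Cmpd 1 versus Food matched animals the log2 fold change was 0.46 ± 0.22 (adjusted p = 0.139), and it became a DEG at 0.62 without Food matched rat 2 and at 0.59 without Cmpd 1 rat 1.

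Clec14a, a lectin of endothelial cells, was at 52.0, 54.0, 52.9, 56.1 and 58.2 CPM in Lean and at 46.5, 37.8, 38.2, 26.6 and 33.9 CPM in Obese rats. It was at 26.1, 28.7, 20.5, 27.7 and 34.2 CPM in Food matched and at 40.4, 31.9, 41.1, 38.2 and 36.3 CPM in Cmpd 1 rats. All obese rats lay below all Lean rats, and the Cmpd 1 and Food matched ranges overlapped between 31.9 and 34.2 CPM. The log2 fold changes of −0.58 ± 0.12 in Obese versus Lean (adjusted p = 0.000532, edgeR) and 0.45 ± 0.12 in Cmpd 1 versus Food matched animals (adjusted p = 0.0106) were both under the fold threshold. The former was a DEG at −0.59 to −0.68 without Lean rat 1, Obese rat 1 or Obese rat 3. In Food matched versus Lean it was a DEG at −0.99 ± 0.12. The 5 endothelial markers measured summed to 824 to 935 (Lean), 690 to 951 (Obese), 661 to 883 (Food matched) and 699 to 877 CPM (Cmpd 1), with 1 of the 5 lower in Obese versus Lean and none a DEG in Cmpd 1 versus Food matched animals. Clec1a, also of endothelium, Clec11a, a secreted growth factor, and Clec16a, an intracellular protein of the endolysosome, were no DEGs in any comparison, with means of 12.2 to 21.3 CPM over the groups.

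**Figure D3:**
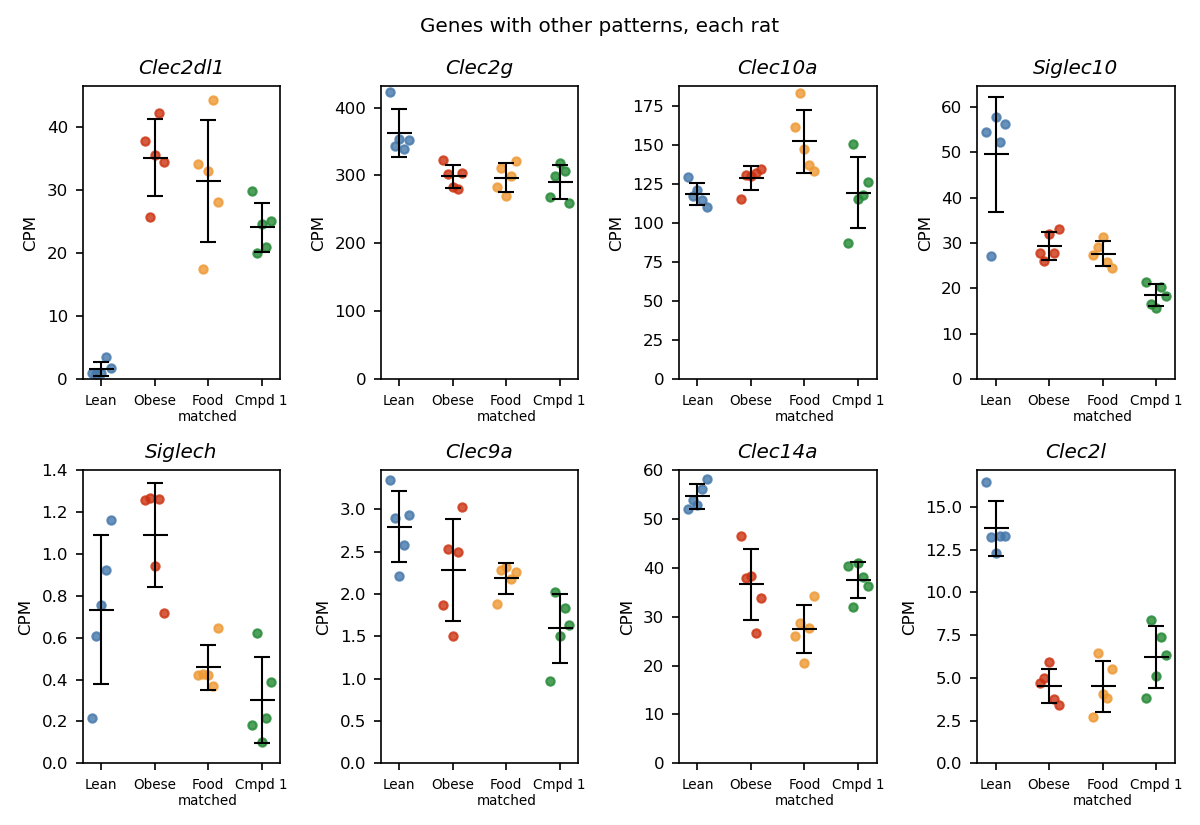
Level in CPM (vertical axes, starting at 0) of 8 genes with other patterns in Lean, Obese, Food matched and Cmpd 1 rats, where each point is 1 rat and bars give the mean ± SD of 5 rats. Clec2dl1 is above 17 CPM in every obese rat of the 3 groups, Siglec10 is highest in Lean rats except rat 2 at 27.2 CPM and lowest in Cmpd 1 rats, and Clec2l is above 12 CPM in Lean rats only.

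Levels of different genes were compared per length, as RPKM, the CPM divided by the gene length in kilobases. Clec2g led with a mean of 155 RPKM over the 20 rats, followed by Clec4a3 (95.4 RPKM) and Clec10a (83.2 RPKM), and these 3 made up 61.2% of the summed RPKM of the 49 genes. In Lean rats the order of the latter pair was the other way, with Clec10a at 76.1 ± 4.65 RPKM and Clec4a3 at 35.8 ± 3.59 RPKM. Clec4a1 followed at 43.3 RPKM, and Clec12a, Siglec1 and Clec7a were at 21.4, 18.6 and 18.3 RPKM. These means pool groups that differ, and in Lean rats Siglec1 was at 8.25 ± 1.36 RPKM and Clec7a at 3.00 ± 1.016 RPKM. By mean RPKM within a group, Clec12a was 16th in Lean and 5th in each of the obese groups, and Clec7a was 18th in Lean and 7th in Obese rats. Clec2dl1 was 28th in Lean rats (0.496 RPKM) and 10th in Obese rats (10.8 RPKM). In the other direction, Clec14a, Siglec10 and Clec2l were 5th, 6th and 7th in Lean and 9th, 12th and 21st in Obese rats.

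**Figure D4:**
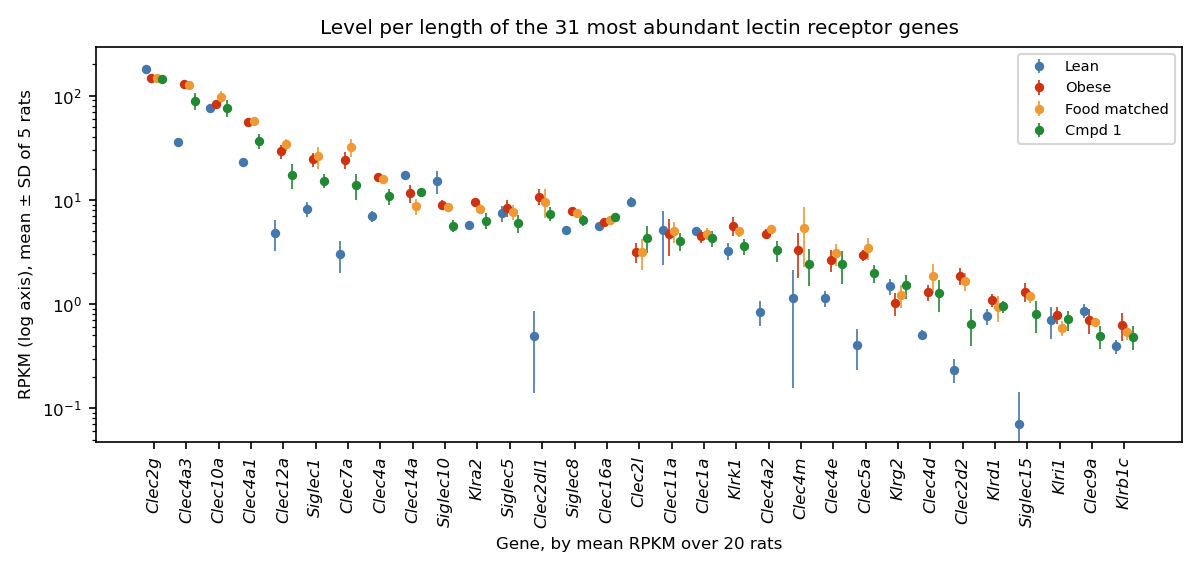
Level per length, in RPKM on a log axis, of the 31 genes with the most RPKM, in order of their mean over 20 rats, with mean ± SD of 5 rats for each of the 4 groups. Clec2g, Clec10a, Clec16a and Clec1a have groups close together, while Clec2dl1, Clec12a, Clec7a, Clec4a2 and Siglec15 have the Lean mean far under the others. The lower bar of Siglec15 in Lean rats runs off the axis because its SD exceeds its mean.

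The remaining comparisons share groups with the ones above. In Cmpd 1 versus Obese animals 9 of the 45 genes were DEGs in the lower direction, against 2.8% of all genes. These were Clec7a, Clec12a, Clec4a, Clec4a1, Clec2d2, Siglec1, Siglec10, Siglech and Klrk1. None was a DEG in the higher direction with edgeR, limma-voom or DESeq2 (0.731% of all genes), while 19 of the 45 had an unadjusted p under 0.05 (28.1% of all genes), of which Klrg2 and Clec16a were higher. At any fold 14 were lower (6.93% of all genes). Leaving out Cmpd 1 rat 2 changed the count of 9 to 14, and leaving out Obese rat 4, Cmpd 1 rat 4 or Cmpd 1 rat 5 changed it to 6. In Food matched versus Obese animals none of the 45 was a DEG in either direction with any of these tools, as for all genes in edgeR (0.0%). There 6 genes had an unadjusted p under 0.05 (10.7% of all genes), Clec4d, Clec10a and Clec4g higher and Klra2, Siglech and Clec14a lower.

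Against Lean animals, 17 of the 45 genes were DEGs in the higher direction (12.5% of all genes) and 4 in the lower direction (12.8%) in Food matched rats. In Cmpd 1 rats the counts were 15 higher (7.47%) and 4 lower (9.11%), the latter being Siglec10, Siglech, Clec9a and Clec2l. In all 3 obese groups 14 genes were DEGs in the higher direction over the same Lean rats. The share of all genes that met this joint rule was not determined, so the count has no background beside it. For the 7 genes that were DEGs in both main comparisons, the Cmpd 1 rats still had log2 fold changes of 0.69 (Clec4a1) to 2.30 (Clec5a) over Lean. Any difference among the 4 groups passed at an adjusted p under 0.05 for 28 of the 45 genes, against 54.6% of all genes tested.

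**Figure D5:**
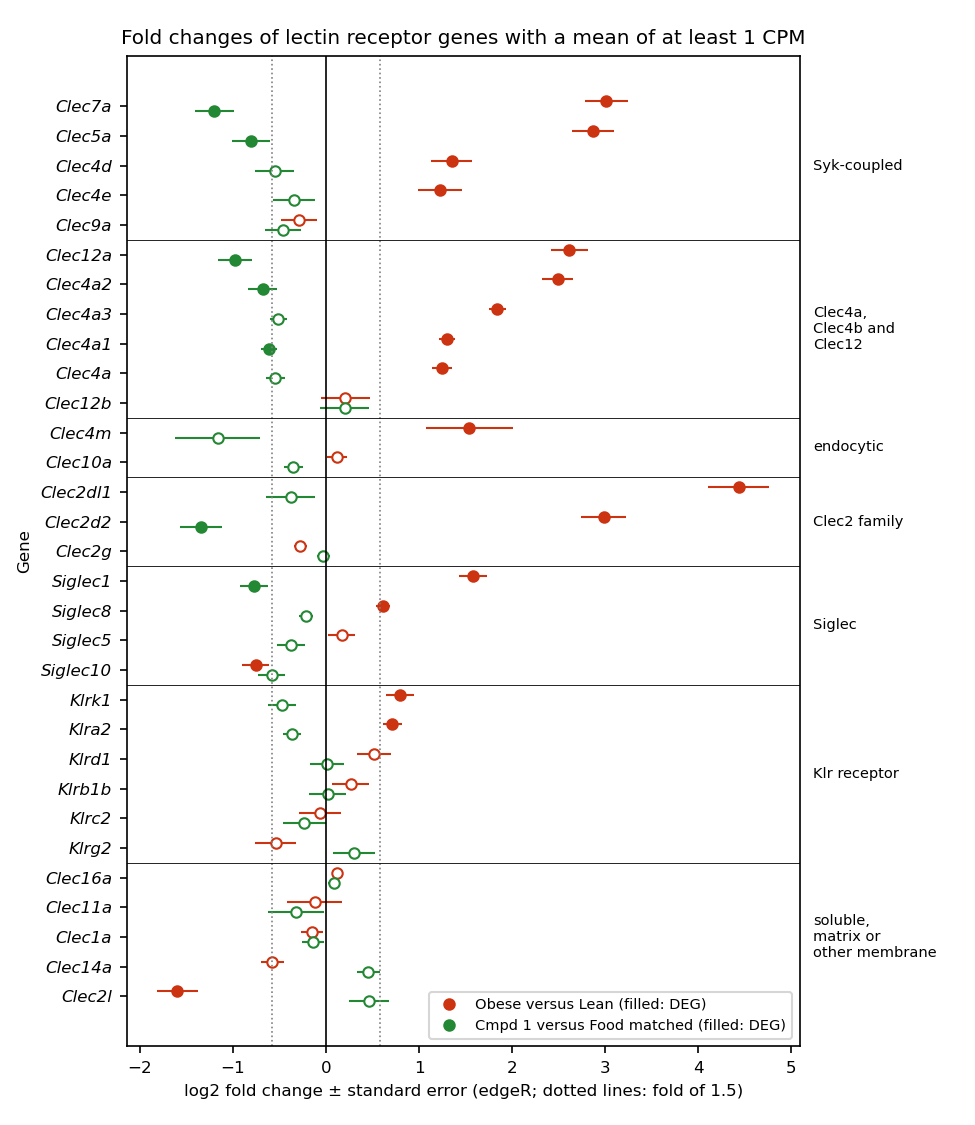
Log2 fold changes with standard errors (horizontal axis) of the 31 genes with a mean of at least 1 CPM, for Obese versus Lean (red) and Cmpd 1 versus Food matched (green). Filled points are DEGs and dotted lines mark a fold of 1.5 either way. The red points of Clec2dl1 (4.43), Clec7a (3.01) and Clec2d2 (2.98) lie farthest to the right, and the green points of Clec2d2 (−1.34) and Clec7a (−1.20) farthest to the left.

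Of 18 adaptors, kinases, phosphatases and other signalling genes that these receptors use, 14 were DEGs in the higher direction in Obese versus Lean (11.3% of all genes) and 3 in the lower direction in Cmpd 1 versus Food matched animals (4.65% of all genes), with median log2 fold changes of 0.91 and −0.44. Fcer1g, the FcRγ chain, was at 68.7 ± 8.87 (Lean), 211 ± 21.9 (Obese), 229 ± 21.6 (Food matched) and 140 ± 28.1 CPM (Cmpd 1), with log2 fold changes of 1.62 and −0.71. Syk changed by 1.83 and −0.59, and Vav1, an exchange factor downstream of Syk, by 1.59 and −0.59. Tyrobp (DAP12) changed by 1.52 in Obese versus Lean, and its value of −0.51 in Cmpd 1 versus Food matched animals was under the fold threshold. Bcl10, Malt1, Src and Ptpn11 were no DEGs in either comparison.

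Of 16 genes of protein ligands, 2 rose and 4 fell in Obese versus Lean (11.3% and 11.0% of all genes). In Cmpd 1 versus Food matched animals 1 rose and 1 fell (1.54% and 4.65% of all genes). The median log2 fold changes were −0.12 and 0.04. Raet1d, a ligand of Klrk1, was 5.03-fold higher in Obese (0.829 ± 0.283 CPM) than in Lean rats (0.161 ± 0.109 CPM) and 2.13-fold lower in Cmpd 1 than in Food matched rats (adjusted p = 0.048, edgeR). Pdpn, the ligand of Clec1b, was 3.79-fold lower in Obese (14.5 CPM) than in Lean rats (54.8 CPM). Cd24, Cdh1 and Cdh4 were the other ligand genes that fell in Obese versus Lean, Spn was the other that rose, and Cdh2 rose in Cmpd 1 versus Food matched animals.

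The lists of cell type markers differed in direction. All 4 leukocyte markers were DEGs in the higher direction in Obese versus Lean and 3 of 4 in the lower direction in Cmpd 1 versus Food matched animals, with summed levels of 229 to 296 (Lean), 742 to 997 (Obese), 758 to 1117 (Food matched) and 499 to 730 CPM (Cmpd 1). Of 11 macrophage markers, 4 (Cd68, Itgam, Mertk and Mrc1) were higher and 3 (Cd163, C1qb and C1qc) lower in Obese versus Lean, and the same 4 were lower in Cmpd 1 versus Food matched animals. They summed to 1796 to 2040 (Lean), 2080 to 2580 (Obese), 2383 to 3648 (Food matched) and 1830.6 to 2362 CPM (Cmpd 1). Of 7 dendritic-cell markers, 4 were higher in Obese versus Lean and 2 (Itgax and Xcr1) lower in Cmpd 1 versus Food matched animals. Their sums were 58.0 to 78.5, 191 to 271, 206 to 290 and 115 to 197 CPM in the same order of groups. The median log2 fold changes of the 7 were 0.83 and −0.39 in these comparisons. Of 9 T-cell markers, 4 were higher in Obese versus Lean and 1 (Cd4, which rat macrophages also express) lower in Cmpd 1 versus Food matched animals, with sums of 155 to 187, 372 to 482, 396 to 528 and 258 to 359 CPM in that order, most of it from Cd4. Of 6 neutrophil markers, Csf3r was higher and Mpo lower in Obese versus Lean, and S100a8 was higher in Cmpd 1 versus Food matched animals. Mpo made up most of their sum, which was 473 to 564 CPM in Lean and 87.2 to 153 CPM in the obese rats. Of 6 mast-cell markers 5 were lower in Obese versus Lean (110 to 142 CPM in sum in Lean and 36.4 to 82.2 CPM in the obese rats). The part of these markers in the receptor values was not tested.

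The levels were also set against Ptprc in each rat, as log2 ratios of CPM, for the 31 genes with a mean of at least 1 CPM. For Clec7a, Clec5a, Clec12a, Clec2d2 and Clec2dl1 the ratio was higher in all Obese than in all Lean rats, as it was for 1.26% of all 12917 genes at that level. For 20 of the 31 it was lower in all Obese rats (93.1% of all genes). The ratio of Clec7a was −3.18 ± 0.28 in Lean, −1.83 ± 0.13 in Obese, −1.47 ± 0.14 in Food matched and −2.09 ± 0.26 in Cmpd 1 rats. Clec7a alone of the 31 had a ratio that was lower in all Cmpd 1 than in all Food matched rats (0.635% of all genes), while the ratios of Clec14a and Clec16a were higher in all Cmpd 1 rats (69.3% of all genes). For Clec12a and Clec5a the ratios of Cmpd 1 and Food matched rats overlapped.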

How the data were processed

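RNA of iWAT from 20 rats was made into TruSeq stranded mRNA libraries, and the authors deposited raw read counts per gene with rn6 coordinates. STAR and featureCounts (Subread 1.5.1) are named by the submitters' notes, which give STAR 2.5.2 and the human build GRCh38, where the methods give rn6 and STAR v2.4.0h. The strand setting of counting is not given in the sources used here. In the Food matched samples the phenotype field says lean, against titles and methods that place them among obese rats, and groups followed the titles.

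Genes without reads in 10 or more of 20 libraries were removed (14892 of 32545). Counts were scaled by TMM and tested with edgeR 4.0.16 (R 4.3.3), by quasi-likelihood with the 4 groups in 1 fit and 16 residual degrees of freedom. P-values were adjusted by Benjamini-Hochberg over 17653 genes, and the thresholds were a fold of 1.5 and an adjusted p of 0.05. The fit was tested on simulated data. CPM and RPKM (with the gene length of the table) describe levels. Depth ran from 31716457 to 74784655 reads, and its part in the values was not tested. Cmpd 1 rat 4, the library with the fewest reads, was the lowest of its group for every gene that was a DEG in both main comparisons.

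The replicate numbers were checked for pairing. Of 30 same-numbered pairs of libraries 1 had a correlation of deviations over 0.1 (range −0.10 to 0.15). The median was 0.00077 for these pairs and −0.0018 for pairs with different numbers. The check gave no sign of pairing by number, which it cannot exclude, and the main fit used no pairing. Values of every rat were given for members with a mean of at least 1 CPM that were DEGs in both main comparisons, for the 4 largest DEG folds in each direction of each, and for the member with the highest RPKM of each kind. Klrk1 and Siglech were added after their values were seen. Alternatives were DESeq2's size factors, library size alone, no filter, filterByExpr, limma-voom (limma 3.58.1), DESeq2 1.42.0, a replicate block, 2-group fits, any fold and fits without single libraries or without Lean rats 1 and 2. Members and gene lists were chosen with earlier results of these data known. Clec4a, Clec2 and Klr genes have near-identical copies. By the paper's methods only uniquely mapped reads were counted, so counts of these genes are uncertain where reads fit more than 1 copy.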

Additional observations from a re-analysis of the deposited data

Results flagged for a closer look

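In 60 sets of 5 rats (15 named genes in 4 groups), the highest or lowest animal was set against the gap that Dixon's test allows, which chance exceeds in about 1 of 20 sets. There were 4 such values, from 3 rats. Lean rat 1 had 16.5 CPM of Clec2l, where the nearest Lean rat had 13.3 CPM. Lean rat 1 also had 423 CPM of Clec2g, against 354 CPM in the nearest Lean rat. Lean rat 2 had 27.2 CPM of Siglec10, against 52.2 to 57.7 CPM in the other Lean rats. These Lean animals are the pair with 1797 and 3414 CPM of summed skeletal muscle transcripts, and the part of muscle in the values was not tested. Obese rat 1 had 115 CPM of Clec10a, against 130 to 135 CPM in the other Obese rats.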

How the results depend on the processing

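At any fold, 4 genes were lower in Obese versus Lean (2 with the fold threshold), 15 lower and 1 higher in Cmpd 1 versus Food matched (8 and 0), and 14 lower in Cmpd 1 versus Obese (9). Without Lean rats 1 and 2, 4 genes were lower in Obese versus Lean (Clec2e and Clec14a besides Siglec10 and Clec2l). With 1 library left out, counts of higher genes ran from 0 to 1 in Cmpd 1 versus Food matched and from 0 to 1 in Cmpd 1 versus Obese, and counts of lower genes from 7 to 10 and from 6 to 14. The log2 fold change of Clec2g in Cmpd 1 versus Food matched, −0.03 in the reported fit, had the other sign with library size alone (0.00536) and without Cmpd 1 rat 5 (0.00700), and ran down to −0.0668 with other single libraries left out, passing no threshold. For Clec4a1 in the same comparison the value was −0.58 with library size alone, under the fold threshold. Over all alternatives, 545 values of single genes kept their direction and side of the threshold, 20 gained a call, 3 lost it and 2 changed sign, while 258 counts stayed within 1.5 times and 10 did not. The cause of these shifts was not tested. A replicate block was also fitted, although same-numbered rats showed little shared deviation. It gave 19 higher and 2 lower genes in Obese versus Lean. The counts were 0 and 9 in Cmpd 1 versus Food matched and 0 and 9 in Cmpd 1 versus Obese. Depth limits Clec4n, Clec4g, Clec4b2, Klrc1, Klrh1 and Klri2, with at most 27 reads in any library.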
